A study of Mus musculus with 2 samples.

Results

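The Notch pathway was examined through 10 genes, Notch1, Notch2, Notch3, Jag1, Jag2, Dll1, Hes1, Hey1, Heyl and Lfng, taken by name from the 49492 genes of the count table. Bulk RNA-seq had been performed on the colonies or organoids that wild-type mouse mammary basal cells formed in 3D culture over 10 days. The basal cells had been sorted by FACS from adult females. The control library came from cells without added cytokine (labelled none), and the TNF-α library from cells grown with recombinant mouse TNF-α, an inflammatory cytokine, at 10 ng/mL. Each condition had 1 library, so no difference had a replicate check, and the labels did not say how many mice or cultures each library pooled. The sort had used CD45, CD31 and TER119 to leave out blood and endothelial cells, and a basal cell placed in 3D culture can also give rise to luminal cells, so each library held a mixture whose makeup was not set by the sort.

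Notch signaling works between touching cells. A ligand of the Jagged or Delta-like family on one cell binds a Notch receptor on its neighbour, the receptor is cut by an ADAM protease and then by γ-secretase, and the freed intracellular domain enters the nucleus, where it joins the DNA-binding protein Rbpj and a Mastermind co-activator to switch on target genes such as the Hes and Hey repressors. In the mammary gland the pathway is known for favouring luminal over basal fate, and the sugars that fringe enzymes add to a receptor alter which ligands it responds to.

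Notch1 and Jag1 stood furthest from equality, in opposite directions. Under TNF-α Notch1 was 2.21-fold lower, and Jag1 was 1.60 times as high as in the control. Notch3, Jag2, Dll1 and Hes1 were lower by smaller amounts, Notch2 and Hey1 lay near equality on the lower side, and the counting intervals of Heyl and Lfng spanned equality. Here and throughout, a difference between libraries is a log2 ratio of TNF-α to control, from counts divided by library size (CPM) with the TMM scaling and a prior count of 2, which puts a 2-fold difference at 1 or -1. Its bracketed interval is the 95% Clopper-Pearson interval of the gene's split of counts between the libraries. It covers counting error only, since PCR copies of a molecule cannot be recognised without identifiers and the spread between cultures was not measured. Over all genes, even counts were in excess among the lowest counts. Of the 10 genes, 3 had an even count in the control and 6 under TNF-α. On halved counts the intervals were wider, such as [-1.20, -1.09] for Notch1. The halved intervals of 2 of the 10 genes, Heyl and Lfng, spanned equality, the same genes as on full counts.

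The control library held 44462275 counts and the TNF-α library 53487087, and the TMM scaling set their sizes at a ratio of 1.1973. All 10 genes passed the filter of at least 10 counts summed over both libraries, and 9 of them had at least 200 counts. A gene was called when its ratio passed 2-fold. Among the 20771 genes past the filter 6.62% were called lower and 8.56% higher, and among the 13609 genes with at least 200 counts these shares were 2.87% and 4.01%. Of the 10 Notch genes, 1 was called lower, Notch1, and 0 were called higher. At 1.5-fold, which 13.7% of all genes passed on the lower side and 15.5% on the higher side, the count was 1 lower, Notch1, and 1 higher, Jag1. Of the 10 ratios 7 were below 0, against 49.4% of all genes, and the median of the 10 was -0.27 against 0.0038.

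**Figure D1:**
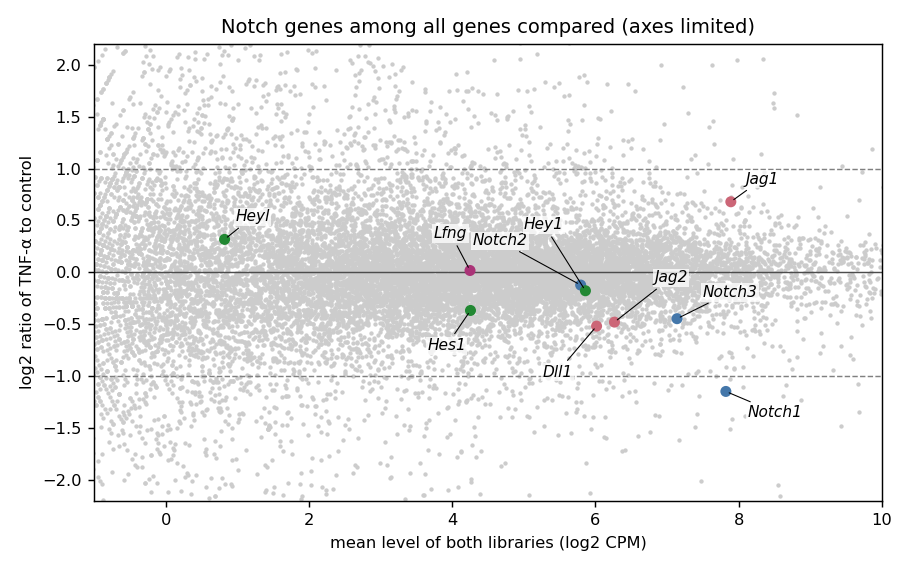
Log2 ratio of TNF-α to control against the mean level of both libraries in log2 CPM, with each grey point 1 gene, dashed lines at 2-fold, and axes limited so that genes beyond them are not drawn. Receptors are blue, ligands pink, targets green and Lfng purple. Notch1 (-1.15) lies below the lower line, while Jag1 (0.68) lies between equality and the upper line.

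The receptors come first. Notch1, at chr2:26457903-26516663 on the minus strand of GRCm38, encodes the single-pass receptor best known from T cell and luminal progenitor fate. It had 13875 counts in the control and 7502 in the larger TNF-α library, or 311 and 141 CPM. The log2 ratio was -1.15 [-1.19, -1.11], a percent change of -54.8, which put Notch1 at percentile 2.22 of the genes with at least 200 counts. A correction for GC content and transcript length, chosen after the data were seen, gave -0.96, which is short of 2-fold. The exons of Notch1 overlapped those of 0610009E02Rik and Gm13568 on the opposite strand, and whether the counting used strand was not stated, so reads in the shared stretches cannot be assigned with certainty. Taking the counts of both overlapping genes (763 and 443) away from Notch1 gave -1.15 again.

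The stretch before a start site of Notch1 is printed for comparison with that of Jag1 and Lfng below, as the receptor with the largest difference. It comes from the RefSeq promoter windows on GRCm38.p6, which reach 250 bases before the start, with bases that lie in annotated exons left out. It reads, 5′ to 3′ along the minus strand at chr2:26503825-26504072, inside the longer span that the count table gives Notch1:
Notch1: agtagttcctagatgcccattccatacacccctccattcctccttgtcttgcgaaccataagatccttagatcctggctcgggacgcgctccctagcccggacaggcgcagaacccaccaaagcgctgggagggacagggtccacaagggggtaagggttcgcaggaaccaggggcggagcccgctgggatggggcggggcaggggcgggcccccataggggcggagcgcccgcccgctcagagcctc
The stretch had a GC content of 66.1% and held neither of the motifs searched, TGGGAA, the core letters that Rbpj binds, nor CACGTG, an E-box that Hes and Hey proteins can bind.

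Notch3, at chr17:32120820-32166880 on the minus strand, encodes the receptor that is also a hallmark of mural cells around vessels. It had 7241 control counts and 6364 TNF-α counts, and its log2 ratio was -0.45 [-0.49, -0.40], or -0.27 after the GC and length correction. Gm17276 overlaps it on the opposite strand, and without that gene's counts the ratio was -0.43. Notch2, at chr3:98013527-98150361 on the plus strand, encodes a receptor with broad expression. It had 2576 and 2834 counts and a log2 ratio of -0.12 [-0.20, -0.04], which the correction brought to -0.02, and a same-strand gene, Gm42820, shares exon bases with it. All 3 receptors were thus lower after scaling, by amounts whose counting intervals did not overlap.

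Levels of different genes were compared as TPM, which divides the counts of each gene by its exon length and by the total of all genes so divided. In the control library Notch1 (61.7 TPM) and Notch3 (57.0 TPM) were close, and Notch2 (15.1 TPM) was well below both. In the TNF-α library Notch3 led with 40.5 TPM, followed by Notch1 with 27.0 and Notch2 with 13.5. The share of Notch1 in the summed receptor TPM was 46.1% in the control and 33.3% under TNF-α, while that of Notch3 went from 42.6% to 50.0% and that of Notch2 from 11.3% to 16.6%. The summed TPM of the 3 receptors was 134 in the control and 81.0 under TNF-α. Their summed counts, 23692 and 16700, gave a log2 ratio of -0.76 [-0.79, -0.74]. In bulk RNA, fewer cells of a type and less RNA per cell cannot be told apart, which holds for every difference given here.

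**Figure D2:**
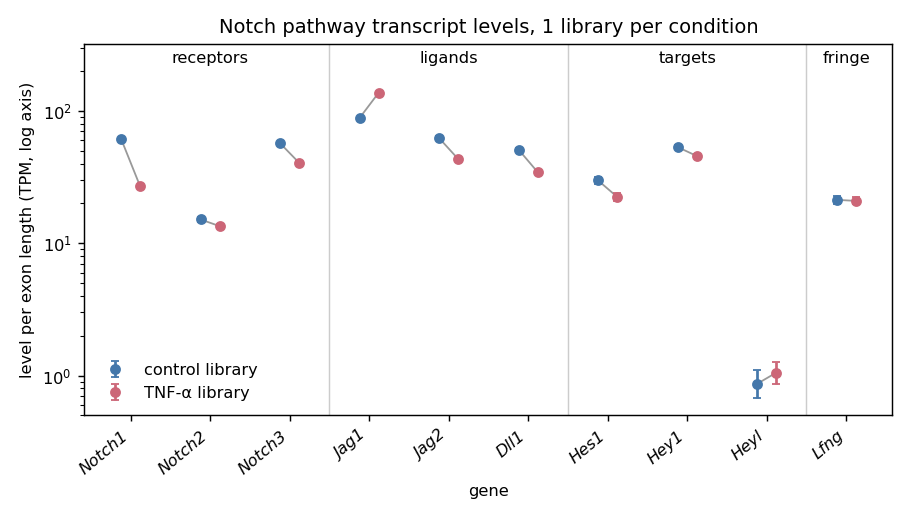
Level per exon length in TPM on a log axis for each gene in the control library (blue) and the TNF-α library (pink), with 95% counting intervals that are often smaller than the points. Jag1 was the most abundant of the 10 in both libraries, and Notch1 went from 61.7 to 27.0 TPM.

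Jag1, at chr2:137081456-137116644 on the minus strand, encodes a Jagged ligand. It had 8121 counts in the control and 15580 under TNF-α, or 182 and 292 CPM. Its log2 ratio was 0.68 [0.64, 0.72], a level 60.2% higher, at percentile 92.6 of genes with at least 200 counts, and the GC and length correction gave 0.69. Jag1 was the one ligand of the 3 with a higher level in the TNF-α library. The stretch directly before its first base is shown because Jag1 was the ligand with the largest difference and the highest level, and it reads, along the minus strand at chr2:137116645-137116770:
Jag1: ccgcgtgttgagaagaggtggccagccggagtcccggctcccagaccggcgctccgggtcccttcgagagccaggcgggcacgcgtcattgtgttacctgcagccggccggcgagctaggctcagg
Its GC content was 70.6%, and TGGGAA and CACGTG were both without a match.

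Jag2, at chr12:112908590-112929495 on the minus strand, encodes the other Jagged ligand. It had 3991 and 3428 counts, and a log2 ratio of -0.48 [-0.55, -0.41], or -0.32 after the correction. Dll1, at chr17:15367354-15376872 on the minus strand, encodes a Delta-like ligand that mammary stem-like basal cells are known to carry. It had 3395 and 2839 counts and a log2 ratio of -0.52 [-0.59, -0.45], and without the counts of A930024N18Rik, which overlaps it on the opposite strand, the ratio was the same. Jag2 and Dll1 were therefore lower by like amounts, with overlapping intervals, and the Jag2 to Dll1 ratio of TPM within a library was 1.22 in the control and 1.26 with TNF-α.

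Summed over the 3 ligands, the difference was smaller than that of Jag1 alone. Summed ligand TPM was 202 in the control and 215 under TNF-α, and the summed counts, 15507 and 21847, gave a log2 ratio of 0.23 [0.20, 0.26]. Summed counts, here and for the other roles, give longer genes more weight. Jag1 has the longest exon length of the 3 ligands, 5827 bases against 4054 for Jag2 and 4219 for Dll1. The TPM sums, which are per length, stood closer together than the summed counts. The makeup differed more, since Jag1 made up 43.8% [43.0, 44.6] of ligand TPM in the control and 63.8% [63.1, 64.5] under TNF-α. Jag2 went from 30.9% to 20.2% and Dll1 from 25.3% to 16.1%.

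**Figure D3:**
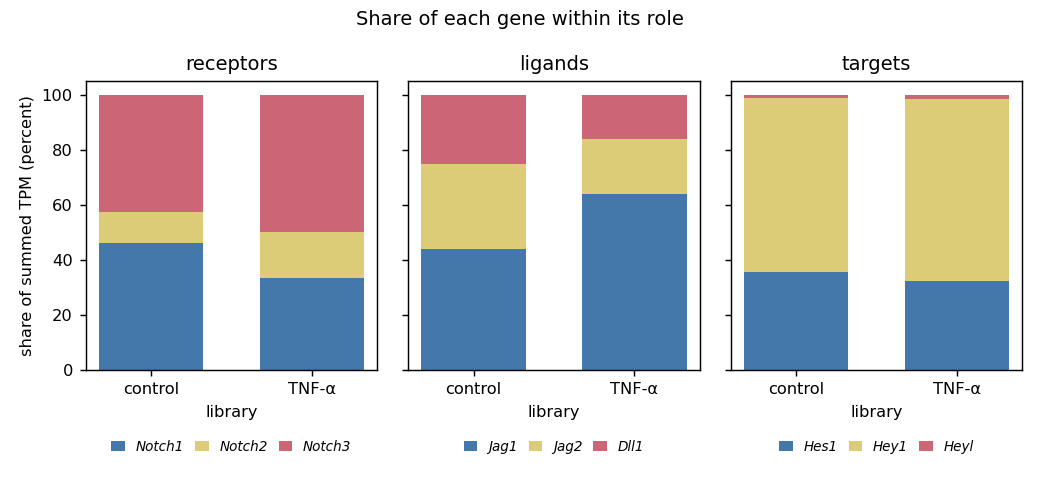
Share of each gene in the summed TPM of its role, in percent, for the control and TNF-α libraries, with bars stacked from 0 to 100. Notch1 took 46.1% of receptor TPM in the control and 33.3% under TNF-α, and Jag1 took 43.8% and 63.8% of ligand TPM.

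Ratios of 2 genes within the same library do not depend on how the libraries are scaled, and 7 such pairs were computed. The pairs, shares and summed counts were not corrected for GC content and length. That correction moved Notch1 from -1.15 to -0.96 and Jag2 from -0.48 to -0.32, but Jag1 only from 0.68 to 0.69. The intervals of the pairs do not cover such shifts. Jag1 had 1.43 times the TPM of Notch1 in the control and 5.07 times under TNF-α, a log2 difference of 1.83 [1.77, 1.88]. Against Jag2 the Jag1 ratio went from 1.42 to 3.16 (log2 difference 1.16 [1.08, 1.24]), and against Dll1 from 1.73 to 3.97 (1.20 [1.12, 1.28]). Among the receptors, Notch1 had 4.08 times the TPM of Notch2 in the control and 2.01 times under TNF-α, a log2 difference of -1.02 [-1.11, -0.94]. Against Notch3 it went from 1.08 to 0.666, so that the order of the pair turned (-0.70 [-0.76, -0.64]).

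**Figure D4:**
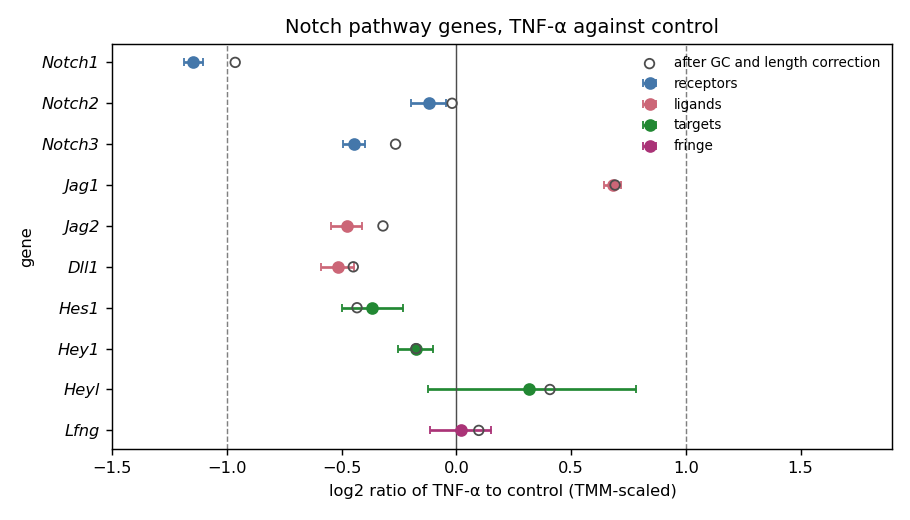
Log2 ratio of TNF-α to control for the 10 genes, with filled points for the TMM-scaled ratio, bars for the 95% counting interval, open circles for the ratio after the GC and length correction, and dashed lines at 2-fold. Only the filled Notch1 point (-1.15) passes a dashed line, and its open circle lies at -0.96.

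The targets were Hes1, Hey1 and Heyl, which encode basic helix-loop-helix repressors that the cut receptor switches on. Hes1, at chr16:30064384-30067796 on the plus strand, had 959 control counts and 890 TNF-α counts, a log2 ratio of -0.37 [-0.50, -0.23]. Hey1, at chr3:8663359-8667256 on the minus strand, was the most abundant target, with 2747 and 2909 counts and a log2 ratio of -0.18 [-0.25, -0.10]. Both were lower than in the control library by less than Notch1 was. Heyl, at chr4:123233556-123249875 on the plus strand, was scarce, with 70 and 105 counts or 0.867 and 1.05 TPM, and its ratio of 0.32 [-0.12, 0.78] was not distinguishable from equality at this depth. The summed target counts, 3776 and 3904, gave a log2 ratio of -0.21 [-0.28, -0.15]. Hey1 held 63.5% of target TPM in the control and 66.1% under TNF-α. The Hes1 to Hey1 ratio went from 0.560 to 0.490 (log2 difference -0.19 [-0.34, -0.04]), and no interval on halved counts was computed for this pair.

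Lfng, at chr5:140607320-140615545 on the plus strand, encodes lunatic fringe, the enzyme that adds N-acetylglucosamine to O-fucose on Notch receptors. It had 842 and 1021 counts, or 18.9 and 19.1 CPM, and a log2 ratio of 0.02 [-0.11, 0.15]. Of the 7 genes with a promoter window to search, Lfng was the only one whose window held a motif searched. Its stretch before the start, along the plus strand at chr5:140607091-140607319, is shown with the motif letters in capitals, where the earlier run in capitals is the Rbpj core on the opposite strand and the later run is the E-box with the Rbpj core overlapping its end:
Lfng: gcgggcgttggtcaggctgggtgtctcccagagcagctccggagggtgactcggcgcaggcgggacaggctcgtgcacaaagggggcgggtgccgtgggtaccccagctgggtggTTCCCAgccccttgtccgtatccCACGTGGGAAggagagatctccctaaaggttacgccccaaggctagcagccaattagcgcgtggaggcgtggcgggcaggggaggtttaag
Measured to the RefSeq start, the E-box began 112 bases before it and the Rbpj core that overlaps the E-box 108 bases before it. The Rbpj core on the opposite strand began 135 bases before it. That start lies beyond the end of the printed stretch, which stops where an annotated exon of Lfng begins. On both strands, TGGGAA was present in 21.6% of 32817 promoter windows of 250 bases and CACGTG in 6.02%, against 1 of the 8 windows matched to 7 of the 10 genes for each motif. A match of letters is a description and no evidence of binding. Hes1, Hey1 and Heyl had no window, so they were not searched.

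In order of TPM the control library read Jag1, Jag2, Notch1, Notch3, Hey1, Dll1, Hes1, Lfng, Notch2 and Heyl, where the counting intervals of Jag2 and Notch1, and of Hey1 and Dll1, overlapped. The TNF-α library read Jag1, Hey1, Jag2, Notch3, Dll1, Notch1, Hes1, Lfng, Notch2 and Heyl, where Hey1 and Jag2, and Hes1 and Lfng, overlapped. Notch1 moved from place 3 to place 6 and Hey1 from place 5 to place 2, and Jag1 stayed first and Heyl last.

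The other genes of the pathway were taken from 8 lists of 73 genes in all, of which 69 passed the filter. Of these, 3 were called higher and 6 lower, against the 8.56% and 6.62% of all genes, 48 of the 69 ratios were below 0, and the median was -0.29 (-0.23 after the GC and length correction). The genes called lower were Dll4, Aph1c, Dtx4, Hes2, Hes7 and Hey2, and those called higher were Neurl1a, Dtx3l and Dlk1. Of the 9, only Dtx3l, Dtx4 and Hey2 had at least 200 counts.

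Among the remaining receptors and ligands, Dll4, a ligand best known from endothelial tip cells, had 34 and 4 counts and a log2 ratio of -2.80 [-5.30, -1.86], and the opposite-strand gene Gm14207 held 32 and 5 counts, so that the reads of the pair cannot be told apart. Notch4, a receptor of endothelium, had 62 and 102 counts and a ratio of 0.45 [-0.01, 0.94]. Dll3 had 0 counts in both libraries. These levels stood beside endothelial markers that were themselves low: the 8 markers summed to 9.18 CPM in the control and 8.60 under TNF-α, and their part in Dll4 and Notch4 was not tested.

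Of the 4 other glycosyltransferase genes past the filter, 2 lay above 0 and 2 below. Of these 4, 0 were called, at a background of 8.56% higher and 6.62% lower. Rfng, radical fringe, was at -0.71 (420 and 307 counts) and Poglut1, the O-glucosyltransferase, at 0.38 (977 and 1523 counts). Mfng had 4 and 2 counts and did not pass the filter. Among the 7 genes for ligand ubiquitination and endocytosis 5 lay below 0 and the median was -0.30. Of these 7, 1 was called higher, against 8.56% of all genes, and 0 lower, against 6.62%. Epn1, an epsin, was lowest at -0.52, and Neurl1a, a neuralized ubiquitin ligase, was highest at 1.23 (lower bound 0.61) on 25 and 73 counts.

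In receptor cleavage, Adam17, a protease that sheds TNF-α as well as acting on Notch, was highest at 0.55 (3484 and 6127 counts), while Aph1c, a γ-secretase subunit, was lowest at -1.73 [-2.39, -1.22] on 101 and 35 counts. The median of the 10 cleavage genes was -0.14, and 8 of them lay below 0.

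In the nucleus, Rbpj had 3867 and 5742 counts and a log2 ratio of 0.31 [0.25, 0.37], the highest of the 9 co-activator genes, and Crebbp, a histone acetyltransferase, was the lowest at -0.42. The 13 co-repressor genes ran from Tle2, a Groucho-family co-repressor, at -0.82 (1096 and 742 counts) to Ctbp2, which shares exon bases with a same-strand neighbour, at 0.48 (1967 and 3290 counts). No gene of these lists was called in either direction, at a background of 8.56% higher and 6.62% lower.

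The receptor traffic and inhibitor genes held the largest differences on well-counted genes. Dtx3l, a Deltex-family ubiquitin ligase that works with Parp9, had 1577 and 5272 counts and a log2 ratio of 1.48 [1.40, 1.56], and its opposite-strand neighbour Parp9, which shares 458 exon bases with it, had 1326 and 4406 counts. Dtx4, another Deltex gene, had 1195 and 430 counts, a ratio of -1.73 [-1.90, -1.57]. Dlk1, a non-canonical ligand, had 4 and 28 counts and a ratio of 2.11 [1.03, 4.52]. Dtx3l and Dtx4 thus lay past 2-fold in opposite directions.

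Among the 11 other Hes and Hey genes and direct targets past the filter, 8 lay below 0 and 3 above, and the median was -0.49. Of these 11, 3 were called lower, against 6.62% of all genes, and 0 higher, against 8.56%. Hey2, a relative of Hey1, had 204 and 106 counts and a log2 ratio of -1.19 [-1.56, -0.86]. Hes2 had 12 and 2 counts (-1.99 [-6.05, -0.68]) and Hes7 had 16 and 6 (-1.38 [-3.32, -0.25]). On halved counts both intervals spanned equality, at [-8.37, 0.20] for Hes2 and [-4.22, 0.38] for Hes7. Myc, a target shared with many other pathways, was highest at 0.57 on 582 and 1039 counts. Hes3 (2 and 0 counts) and Hes5 (4 and 0 counts) did not pass the filter.

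**Figure D5:**
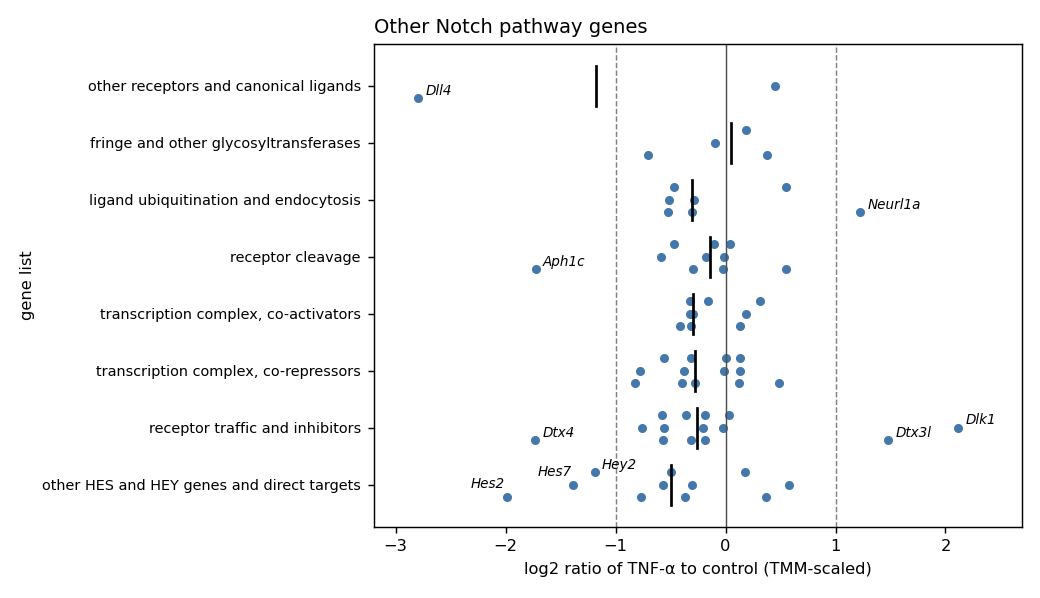
Log2 ratio of TNF-α to control of the other pathway genes past the filter, by list, with each point 1 gene, black bars for list medians and dashed lines at 2-fold. The 9 named genes lie past 2-fold, from Dll4 at -2.80 to Dlk1 at 2.11.

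Markers of the cell types that the cultures could hold were read beside these values. Basal markers were abundant in both libraries, with Krt5 at 3164 and 3435 TPM. Of the 12, 7 were above 0 and 5 below, with a median ratio of 0.10. They ran from Oxtr, the oxytocin receptor, at -1.19 to Procr at 0.44 [0.05, 0.85] on 86 and 140 counts. On halved counts the Procr interval spanned equality, at [-0.125, 1.03]. The summed level of the basal markers was 12544 CPM in the control and 11782 under TNF-α. Luminal markers were also present, with Krt8 at 1896 and 1715 TPM, and differed more. Of the 13, 10 were below 0, with a median of -0.77, from Pgr, the progesterone receptor, at -1.54 to Cd14 at 1.19. The summed level of the luminal markers was 4468 CPM in the control and 3586 under TNF-α. All 11 squamous differentiation markers past the filter were below 0. They ran from Krt10, a suprabasal keratin, at -4.62 (4433 and 214 counts) to Tgm3 at -0.03 [-1.83, 1.81] (6 and 7 counts). The summed level of the squamous markers was 2360 and 1765 CPM, of which Krt6a alone gave 1711 and 1510 CPM. Notch1 is known from luminal progenitors and from the differentiating layers of squamous epithelium, and the part of these markers in the Notch1, Notch3 and target ratios was not tested.

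Mural markers, read without Notch3 and Heyl, summed to 51.6 and 39.1 CPM, with Abcc9 lowest at -1.25 and Cspg4 highest at 0.22, and their part in the Notch3 ratio was not tested. Endothelial markers ran from Kdr at -0.30 to Cdh5 at 0.22. Leukocyte markers summed to 5.77 and 4.57 CPM, from Cd79a at -0.60 (6 and 4 counts) to Ptprc at 0.27 (26 and 38 counts). The T cell gene Cd3e had 0 counts in both libraries. Fibroblast markers summed to 500 and 498 CPM, from Col3a1 at -0.66 to Dpt, dermatopontin, at 4.58 (20 and 622 counts).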

How the data were processed

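Total RNA libraries of 3D-cultured mouse mammary basal cells were sequenced on a Hiseq X 10, and the authors deposited raw read counts per gene, with exon coordinates and the other column used here, exon length in bases. The labels give GRCm38/mm10; 90.8% of 47240 shared gene names had the same coordinates in GENCODE M21. The aligner, counting tool and strand setting were not given in the sources used here. Even counts were in excess (2172 control genes with 2 counts, 618 with 1), so halved counts were an alternative.

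From the counts, edgeR (version 4.0.16, R 4.3.3) gave TMM-scaled CPM with a prior count of 2, and genes with fewer than 10 counts over both libraries were left out. A count of 10 is worth 0.225 CPM in the control and 0.187 CPM under TNF-α. TPM used counts and exon length. A replicated test (edgeR quasi-likelihood) needs more than 1 library per group, so genes were called by fold only. Intervals are 95% Clopper-Pearson (scipy 1.17.1). The scripts were tested on simulated counts with counting error only, which cannot check the intervals against the even-count excess or the spread between cultures. Alternatives were DESeq2 (version 1.42.0) size factors, total-count and upper quartile scaling, other filters and prior counts, and, chosen after the data were seen, a lowess correction (span 0.3) for GC content and length and removal of overlapping genes' counts. The 10 genes are named in full. Of the other pathway lists, genes past 2-fold and the extremes are named, and of the cell type lists the extremes and genes at 0. Other genes named (overlapping genes, Mfng, Hes3, Hes5, Krt5, Krt6a, Krt8) were chosen after their values were seen. The members and lists were chosen with earlier results of these data known.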

Additional observations from a re-analysis of the deposited data

How the results depend on the processing

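No paired analysis was possible because there was 1 library for each condition, and none could be left out. Each of the 10 Notch genes was recomputed under 9 alternatives (total-count, DESeq2 and upper quartile scaling, no filter, at least 1 CPM, prior counts of 0.5 and 5, halved counts, and the GC and length correction). Of these 90 values 86 stayed inside the counting interval and none changed sign. Scaling, filters, prior counts and halving can move a well-counted ratio only slightly, with Notch1 between -1.16 and -1.14. Their agreement is therefore a weak check. The other 4 values came from the GC and length correction, which brought Notch1 to -0.96, Notch2 to -0.02, Notch3 to -0.27 and Jag2 to -0.32. It left 0 of the 10 genes past 2-fold lower. The other pathway genes called lower numbered 3 in place of 6 both with at least 1 CPM in a library and with the whole counting interval past 2-fold. Over all genes, 2695 were higher and 2981 lower with no filter, 836 and 659 with at least 1 CPM, and 776 and 561 with the whole interval past 2-fold, against 1777 and 1375. Depth limited Heyl (70 and 105 counts) and the scarce Dll4, Hes2, Hes7 and Dlk1.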
